A study of Mus musculus with 12 samples.

Results

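Genes whose RNA counts in unstimulated mouse dendritic cells were far lower after LPS were followed from WT cells into cells in which Ctcf had been deleted. They were chosen by their expected counts in the WT and WTL libraries, with at least 100 in each of the 3 WT libraries and at most 30 in each of the 3 WTL libraries, and Cd300lb was left out by name. Of the 55335 genes in the files, 9340 held at least 100 counts in each WT library, and 23 of these (0.246%) were within both limits. The 23 were Angptl2, Ankle1, Ankrd63, Cd2, Cnr2, Creg2, Dnajc28, Ehf, Engase, Fam78a, Fbxo31, Gm16170, Gm45606, Gm9821, Hist2h2be, Mlph, Nap1l2, Nemp2, Neurl1b, Polr3g, Snx24, Sox4 and Tiam2.

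The RNA-seq libraries came from bone marrow of C57BL/6 mice that was grown for 6 days with GM-CSF into bone marrow-derived dendritic cells (BMDCs), of which the CD11c+ cells were selected with beads. WT cells carried the tamoxifen-inducible recombinase CreER from the Rosa26 locus and intact Ctcf, and KO cells carried CreER with Ctcf fl/fl, so the recombinase was present in all 4 groups. The recombinase was switched on with 4-OHT on the first day of culture to delete Ctcf, and the sources used here do not make clear whether WT cultures were given 4-OHT too. WTL and KOL were the same cells after 3 h with LPS at 100 ng/ml, and each of the 4 groups had 3 replicates, which the paper's methods call biological. Because CreER acts from a broadly expressed locus and from the first day, Ctcf was deleted in the bone marrow precursors and not in finished dendritic cells alone.

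LPS, a part of the outer membrane of Gram-negative bacteria, is sensed by TLR4, and dendritic cells respond by switching on cytokine and co-stimulatory genes while genes of the resting cell are turned down. The amount of an mRNA can drop when its transcription stops, when its decay quickens, or both, and an RNA level at a single time does not tell these apart. CTCF binds DNA at the borders of chromatin loops and domains and limits which enhancers a promoter can meet.

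Total expected counts were 12769773 to 16586334 per library. Ctcf itself was measured at 975 to 1051 normalized counts in WT, 745 to 886 in WTL, 516 to 570 in KO and 526 to 563 in KOL, so KO lay below WT as labelled. The gene count also takes in exons that need not have been deleted. WTL replicate 2 stood apart with 5.17% of its counts in ribosomal RNA genes, against 0.383% to 1.18% in the other 11 libraries, and without it the same limits took 24 genes. Of 12 cytokines and enzymes known to be induced by LPS, among them Il6, Il12b, Tnf and Ifnb1, 12 rose in WTL against WT and 12 rose in KOL against KO. The dendritic cell markers were present, with Itgax, the gene of CD11c, at a mean of 366 TPM in WT and 606 in KO, and the MHC class II genes H2-Aa, H2-Ab1 and H2-Eb1 at 3519, 1743 and 2163 TPM in WT and 1484, 923 and 914 in KO. Genes of B cells, T cells, plasmacytoid and erythroid cells were near 0: of 13, 12 were too low to be tested, and the 13 together summed to 1.54 to 4.2 TPM in any library.

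To examine whether the 23 genes also fell where CTCF was missing, KOL was compared with KO. In the KO and KOL libraries, which the choice had not used, 22 of the 23 genes fell more than 2-fold with LPS at an adjusted p below the threshold of 0.05, whereas 13% of the 14008 genes tested did so. The median log2 fold change of the 23 genes in KOL against KO was -2.33, with a range from -5.29 for Ankrd63 to -0.62 for Sox4, and the median over all genes tested was -0.02. Adjusted p-values of the 22 ran from 8.2e-11 for Cnr2 to 3.3e-05 for Ankle1 in the quasi-likelihood test of edgeR. Sox4 passed the p threshold (adjusted p = 0.0027) but not the fold of 2. In each of the 23 genes the highest KOL library lay below the lowest KO library, which was also so for 36.2% of all genes tested. These are bulk samples, so fewer cells that make a transcript and less of it per cell cannot be told apart.

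In WTL against WT, the contrast the genes were chosen on, the median log2 fold change was -2.48 and the range -3.73 to -1.66, and 9.99% of all genes tested were lower by the same thresholds. Expressed as what remained, the WTL mean was 7.26% to 32.0% of the WT mean (median 18.2%), and the KOL mean was 2.46% to 65.3% of the KO mean (median 19.9%). Ranked by the fall among the 14008 genes, the 23 stood at ranks 17 to 444 in WTL against WT and 10 to 3393 in KOL against KO. In both genotypes more of all genes rose than fell by these thresholds, with 12.6% higher in WTL and 15.1% higher in KOL.

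**Figure D1:**
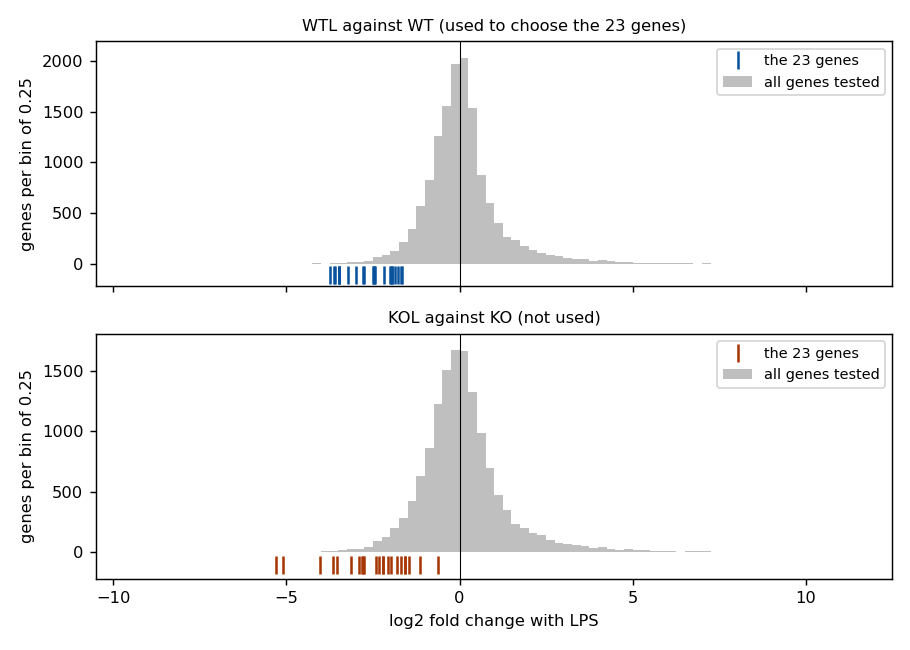
The log2 fold changes with LPS of all genes tested are drawn as grey bars (genes per bin of 0.25), and those of the 23 genes as ticks under them, for WTL against WT (upper panel, used to choose the genes) and KOL against KO (lower panel, not used). In the lower panel the ticks lie between -5.29 and -0.62 with a median of -2.33, and the median of all genes is -0.02.

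Values just inside and outside the limits were as follows. Cnr2 and Tiam2 reached 30 counts in a WTL library and Creg2 29.5, and Klhl42, Zfp41 and Aatk missed the upper limit at 31, 31.1 and 32. Nap1l2 had a WT library at 100 counts and Ankle1 and Cd2 at 102, and Asb4, Shpk and Ccdc181 missed the lower limit at 96, 96 and 94. Cd300lb, left out by name, reached 92 counts in WTL and was not within the limits.

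The genes were of modest abundance. Their mean TPM in WT, a level per transcript length, was 2.29 to 10.2 with a median of 3.93, and the median over all genes tested was 11.6. Cd2 and Cnr2 had the highest levels at rest (10.2 and 10.1 TPM), followed by Snx24 at 8.32 ± 1.79 TPM (SD, n = 3) and Gm9821 at 5.57 ± 0.468 TPM. Ankle1 (4.85 ± 0.734), Fam78a (4.78 ± 0.251), Angptl2 (4.76 ± 0.287) and Gm45606 (4.66 ± 0.372 TPM) did not differ from each other beyond their spread. Sox4, at 2.29 ± 0.126 TPM, had the lowest.

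**Figure D2:**
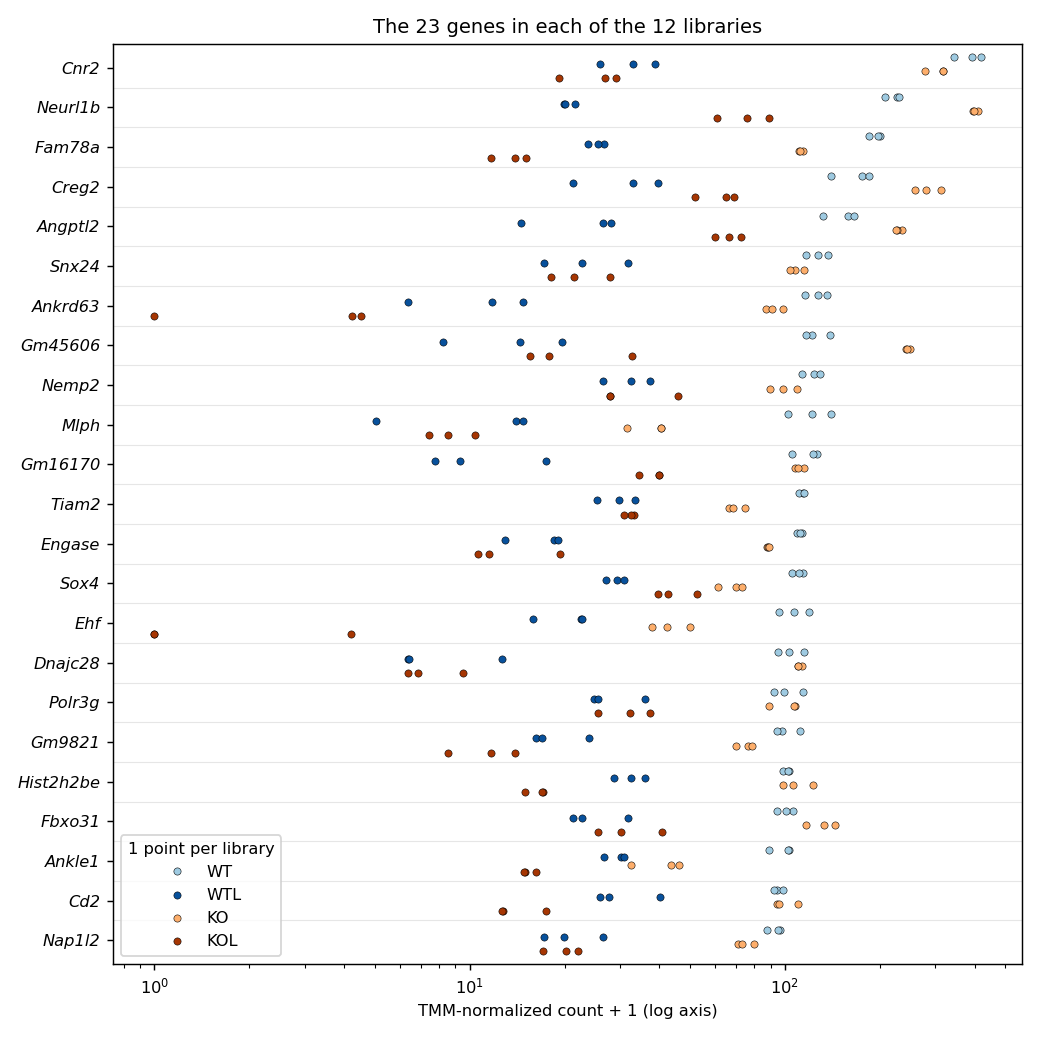
Each of the 23 genes is a row, ordered by its WT mean, and each point is 1 library, placed by its TMM-normalized count + 1 on a log axis, with WT and WTL in light and dark blue and KO and KOL in light and dark orange. In every row the 3 KOL points lie to the left of the 3 KO points, and for Ehf and Ankrd63 they reach 0 counts.

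Promoter sequences, the 250 bases before to 50 bases after a start site, were found in RefSeq for 15 of the 23 genes, in 21 windows (GRCm38.p6). The promoters of the 3 genes with the most WT counts are shown, Cnr2 (both start sites), Fam78a (its first listed start site) and Neurl1b, because they differ widely in base composition; capitals mark CpG dinucleotides, and each runs 5′ to 3′ on the strand of the gene. They lie at chr4:135894939-135895238 (+) and chr4:135911430-135911729 (+) for Cnr2, chr2:32084620-32084919 (-) for Fam78a and chr17:26414609-26414908 (+) for Neurl1b.
Cnr2, start site 1: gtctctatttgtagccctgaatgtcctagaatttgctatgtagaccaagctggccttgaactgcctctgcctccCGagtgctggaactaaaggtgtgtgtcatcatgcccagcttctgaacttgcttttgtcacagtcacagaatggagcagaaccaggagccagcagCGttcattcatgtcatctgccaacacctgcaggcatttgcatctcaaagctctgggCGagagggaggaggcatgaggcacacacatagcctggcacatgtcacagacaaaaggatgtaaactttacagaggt
Cnr2, start site 2: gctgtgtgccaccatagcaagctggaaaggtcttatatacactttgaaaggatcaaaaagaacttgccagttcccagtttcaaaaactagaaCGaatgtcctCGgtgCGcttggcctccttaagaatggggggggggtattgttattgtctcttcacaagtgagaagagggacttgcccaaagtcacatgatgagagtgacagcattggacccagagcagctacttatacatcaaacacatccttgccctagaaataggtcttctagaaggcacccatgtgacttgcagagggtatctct
Fam78a, start site 1: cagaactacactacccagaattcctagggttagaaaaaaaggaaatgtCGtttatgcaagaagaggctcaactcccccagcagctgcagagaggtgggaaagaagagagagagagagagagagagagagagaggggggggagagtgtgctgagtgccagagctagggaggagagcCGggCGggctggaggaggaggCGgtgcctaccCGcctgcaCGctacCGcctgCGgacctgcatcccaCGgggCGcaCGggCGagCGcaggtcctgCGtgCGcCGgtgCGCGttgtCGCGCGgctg
Neurl1b: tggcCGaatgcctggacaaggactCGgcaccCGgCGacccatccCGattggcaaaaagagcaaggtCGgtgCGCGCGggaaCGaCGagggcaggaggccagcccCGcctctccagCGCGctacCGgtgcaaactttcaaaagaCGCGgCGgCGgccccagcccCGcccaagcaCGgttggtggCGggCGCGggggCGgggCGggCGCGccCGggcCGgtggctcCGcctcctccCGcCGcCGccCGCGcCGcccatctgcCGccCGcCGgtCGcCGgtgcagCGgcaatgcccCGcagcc

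Both Cnr2 windows held 3 CpG dinucleotides, with 50% and 46.3% G and C, whereas the Fam78a window held 21 at 62.7% and the Neurl1b window 44 at 76.0%. Genes of widely different promoter composition were within the same limits. Over the 21 windows the median was 58.7% G and C and 15 CpG, beside 60.3% and 20 over the 12863 windows of genes tested. The searched motifs, on both strands, were matched in few windows: NF-kB, GGGNNTTTCC, in 1 of 21 (Fam78a, beside 1.78% of the windows of genes tested), PU.1, GAGGAAG, in 2 (Dnajc28 and Sox4, beside 13.9%), and C/EBP, TTGCNNAA, in 3 (Cnr2, Engase and Fam78a, beside 8.93%). The NF-kB match of Fam78a began 211 bases before its start site 3, whose window is not shown here. The C/EBP match of Cnr2 began 77 bases before its second start site. The E-box CACGTG was matched in 1 window (Mlph, beside 9.90%) and TATAAA in 1 (Ankrd63, 33 bases before its start, beside 7.25%). The interferon element, GAAANNGAAA, and AP-1, TGANTCA, were matched in 0 of 21, beside 3.33% and 5.40%.

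Receptors and secreted proteins came first among the roles. Cnr2 encodes the cannabinoid receptor CB2, a G protein-coupled receptor of immune cells, and lies on chromosome 4 (chr4:135895394-135920207, mm10). It held 342, 390 and 418 normalized counts in WT and 37.8, 24.9 and 31.9 in WTL, and 278, 317 and 317 in KO and 25.8, 28.1 and 18.2 in KOL. Both LPS groups lay far below both unstimulated groups, and the WTL and KOL libraries overlapped. Its log2 fold change was -3.66 ± 0.16 (SE) in KOL against KO and -3.62 ± 0.15 in WTL against WT, so the difference between the falls (-0.05 ± 0.24) was smaller than its SE.

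Cd2, an adhesion receptor of T cells, NK cells and some myeloid cells that binds CD48 in mice, held 93.7, 91.4 and 97.7 normalized counts in WT and 39.1, 24.9 and 26.6 in WTL. In KO it held 93.3, 109 and 94.5, and in KOL 11.8, 16.4 and 11.7. The KO and WT libraries overlapped, and each KOL library lay below each WTL library, with falls of -2.89 ± 0.21 in KOL against KO and -1.66 ± 0.18 in WTL against WT. The T cell genes Cd3e and Cd3g had mean TPM of at most 0.123 and 0.0700 in any group, beside 10.2 TPM for Cd2 in WT. Which cells the Cd2 RNA came from was not tested. The gene of the Cd2 ligand, Cd48, had log2 fold changes of -0.37 ± 0.08 in WTL and -0.74 ± 0.08 in KOL, short of a fold of 2.

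Angptl2, a secreted angiopoietin-like protein that acts on inflammation and vessels, held 131, 158 and 165 normalized counts in WT and 13.5, 27.1 and 25.5 in WTL. It held 234, 226 and 224 in KO and 59.1, 65.5 and 71.5 in KOL. Each KO library lay above each WT library and each KOL library above each WTL library, and the fall was -1.80 ± 0.15 in KOL against KO beside -2.75 ± 0.18 in WTL against WT. Creg2, a secreted glycoprotein, was likewise higher without CTCF at 283 ± 28.1 in KO against 166 ± 23.2 in WT (SD, n = 3) and 60.9 ± 8.80 in KOL against 30.2 ± 9.30 in WTL. Its fall of -2.22 ± 0.17 in KOL against KO was close to that in WTL against WT (-2.48 ± 0.20, difference 0.26 ± 0.27).

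Next were proteins of ubiquitin transfer, glycan breakdown, membrane traffic and the cytoskeleton. Neurl1b, on chr17:26414829-26446349, encodes a ubiquitin ligase of the Neuralized family, which acts on Notch ligands. It was 221 ± 12.2 in WT, 19.5 ± 0.917 in WTL, 400 ± 8.85 in KO and 74.2 ± 14.3 in KOL. It was the most abundant of the 23 by counts in KO, and its log2 fold change of -2.42 ± 0.11 in KOL against KO was smaller in size than the -3.49 ± 0.15 in WTL against WT. Fbxo31, the substrate-binding part of an SCF ubiquitin ligase, fell from 130 ± 13.6 to 31.2 ± 7.80 in KOL, a log2 fold change of -2.06 ± 0.19 beside -2.01 ± 0.20 in WTL.

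Engase encodes the cytosolic endoglycosidase that trims free N-glycans released from misfolded glycoproteins. It fell from 87.4 ± 0.502 to 12.8 ± 4.76 in KOL, a log2 fold change of -2.75 ± 0.21 beside -2.80 ± 0.20 in WTL. Mlph, melanophilin, the adaptor that ties Rab27a-bearing organelles to myosin Va, was 36.5 ± 5.11 in KO against 120 ± 19.1 in WT. It dropped to 7.76 ± 1.49 in KOL and 10.3 ± 5.42 in WTL, so levels that differed over 3-fold at rest overlapped after LPS (-2.22 ± 0.33 beside -3.48 ± 0.27). Of its partners Rab27a changed by 0.84 ± 0.11 and Myo5a by -1.44 ± 0.15 in KOL against KO.

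Snx24, a sorting nexin that binds phosphoinositides on endosomal membranes, held 126, 116 and 136 normalized counts in WT, 16.2, 21.7 and 30.8 in WTL, 114, 107 and 103 in KO and 20.4, 26.9 and 17.1 in KOL. The genotypes overlapped after LPS, and the falls were -2.33 ± 0.20 and -2.43 ± 0.20 in KOL and WTL. Tiam2, an exchange factor that activates the GTPase Rac, held 113, 110 and 114 in WT and 24.3, 32.5 and 28.7 in WTL, and 65.5, 73.9 and 67.6 in KO and 32.3, 31.6 and 29.9 in KOL. KO lay below WT while KOL and WTL overlapped, and the fall in KOL against KO was -1.14 ± 0.15 beside -1.96 ± 0.15 in WTL. Its relative Tiam1 was short of a fold of 2 in both genotypes (-0.17 ± 0.09 in WTL, -0.84 ± 0.10 in KOL).

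The remaining known roles were in the nucleus. Ehf (chr2:103263433-103303278), an ETS transcription factor best known from epithelial cells, held 106, 94.8 and 118 normalized counts in WT and 21.6, 21.7 and 14.9 in WTL. In KO it held 36.8, 41.3 and 49.1, and in KOL 0, 0 and 3.20. KO lay below WT and KOL below WTL, with no overlap. Since no KOL library held more than 3 counts, the fall is given as a bound, at least 12.8-fold lower in KOL than in KO, and the fitted log2 value of -5.11 ± 0.50 is no bound. The ETS relatives Elf1, Elf2 and Elf4 were between 26.9 and 33.4 TPM in KO and had log2 fold changes of 0.52 ± 0.08, -0.37 ± 0.07 and 0.27 ± 0.07 in KOL.

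Sox4 (chr13:28948919-28953713), an HMG box transcription factor of progenitor cells, held 113, 104 and 110 normalized counts in WT and 28.3, 26.0 and 29.8 in WTL. It held 69.1, 60.5 and 72.3 in KO and 38.7, 51.5 and 41.6 in KOL. The order of the genotypes turned over: KO lay below WT, and KOL above WTL. The log2 fold change was -0.62 ± 0.15 in KOL against KO, the smallest of the 23, and 65.3% of the KO level remained, beside 25.7% of the WT level.

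Polr3g, a subunit of RNA polymerase III, fell from 100 ± 10.3 to 30.7 ± 5.88 in KOL (-1.70 ± 0.19), beside -1.87 ± 0.19 in WTL. Its alternative subunit Polr3gl had -0.96 ± 0.11 and -0.73 ± 0.12, short of a fold of 2, and the subunit Polr3c had 1.05 ± 0.08 in KOL and 0.94 ± 0.08 in WTL. The subunits Polr3a, Polr3b and Polr3f had 0.05 ± 0.10, -0.63 ± 0.09 and -0.36 ± 0.12 in KOL. Hist2h2be, a histone H2B gene, fell from 108 ± 12.7 to 15.4 ± 1.18 in KOL (-2.80 ± 0.17), and in WTL it went from 100 ± 2.5 to 31.4 ± 3.71 (-1.68 ± 0.15). Nap1l2, of the nucleosome assembly protein family, fell from 73.7 ± 4.54 to 18.8 ± 2.49 in KOL (-1.97 ± 0.19), beside -2.17 ± 0.18 in WTL, while Nap1l1 and Nap1l4 had 0.35 ± 0.09 and 0.00 ± 0.06.

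Ankle1, an endonuclease with ankyrin repeats and a LEM domain, held 102, 101 and 88.2 normalized counts in WT, 25.6, 29.2 and 29.8 in WTL, 31.4, 45.1 and 42.6 in KO and 14, 15.2 and 13.9 in KOL. It was lower without CTCF both at rest and with LPS, and its log2 fold changes were -1.46 ± 0.22 in KOL and -1.77 ± 0.18 in WTL. Nemp2, a membrane protein of the nuclear envelope, held 112, 123 and 128 in WT and 36.4, 31.4 and 25.5 in WTL, and 97.8, 108 and 88.9 in KO and 26.9, 26.9 and 44.8 in KOL. KOL and WTL overlapped, and the falls were -1.57 ± 0.19 and -1.97 ± 0.19, with its relative Nemp1 at -0.38 ± 0.09 and 0.04 ± 0.09.

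Dnajc28, a protein with the J domain of Hsp40-type co-chaperones, lost the largest share in WT. It held 102, 93.9 and 114 normalized counts in WT, 5.39, 5.42 and 11.7 in WTL, 109, 112 and 109 in KO and 5.38, 5.85 and 8.54 in KOL. WTL kept 7.26% of the WT level and KOL 5.99% of the KO level, and the groups overlapped between genotypes both at rest and with LPS (-4.03 ± 0.24 and -3.73 ± 0.24).

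Ankrd63 (chr2:118699103-118703963), a single-exon gene of an ankyrin repeat protein, held 135, 115 and 126 normalized counts in WT, 5.39, 10.8 and 13.8 in WTL, 86.1, 97.9 and 89.9 in KO and 3.23, 3.51 and 0 in KOL. KO lay below WT and KOL below WTL. No KOL library held more than 3 counts, so it was at least 27.6-fold lower in KOL than in KO, and 7.99% of the WT level remained in WTL.

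Fam78a held 199, 196 and 184 normalized counts in WT, 25.6, 22.7 and 24.5 in WTL, 110, 113 and 111 in KO and 14.1, 12.9 and 10.7 in KOL. KO was at 57.6% of WT and KOL at 51.6% of WTL, with no overlap, and the falls were -3.14 ± 0.15 and -2.99 ± 0.13 (difference -0.15 ± 0.22). Its relative Fam78b had 0.96 ± 0.34 and 0.02 ± 0.32. Gm9821, annotated as a protein-coding gene of a single exon, held 97.0, 93.2 and 111 in WT, 22.9, 15.2 and 15.9 in WTL, 69.1, 75.4 and 77.8 in KO and 7.53, 12.9 and 10.7 in KOL. Its log2 fold change was -2.83 ± 0.22 in KOL, beside -2.5 ± 0.20 in WTL. Gm9821 shares 222 exon bases with Dgkz on the opposite strand, and Dgkz, a kinase of diacylglycerol, had log2 fold changes of -0.85 in KOL and -1.02 in WTL.

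Gm45606 and Gm16170 are annotated as antisense genes. The paper's methods describe the libraries as strand-specific, but the sources used here do not state whether strand was used in counting. It is therefore uncertain whether their reads were kept apart from those of the partner. Gm45606 (chr11:75530277-75533071) shares 922 exon bases with Slc43a2, an amino acid transporter. It held 121, 116 and 138 normalized counts in WT, 7.24, 18.6 and 13.4 in WTL, 241, 249 and 243 in KO and 16.9, 31.8 and 14.5 in KOL, with log2 fold changes of -3.53 ± 0.22 in KOL and -3.21 ± 0.25 in WTL. Slc43a2 moved alongside, from 3556 to 466 in WTL (-2.93) and from 4678 to 527 in KOL (-3.15), and it too was higher in KO than in WT.

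Gm16170 (chr11:48843648-48853493) shares 491 exon bases with Trim7, a ubiquitin ligase. It held 125, 104 and 122 normalized counts in WT, 8.35, 6.75 and 16.4 in WTL, 107, 114 and 109 in KO and 39.0, 39.0 and 33.4 in KOL. The unstimulated libraries overlapped, and each KOL library lay above each WTL library. Its falls were -1.58 ± 0.18 in KOL and -3.48 ± 0.23 in WTL, and Trim7 showed the same order, -1.09 in KOL and -2.46 in WTL. Other members share exon bases with a gene on the opposite strand too: Creg2 with D930019O06Rik (919 bases), Engase with Gm11748 (431), Fam78a with Nup214 (177), Tiam2 with Tfb1m (142) and Sox4 with Gm26735 (2616). Fam78a also shares 1169 exon bases with Gm16534 on its own strand, so strand alone could not separate their reads. Gm16534 had log2 fold changes of -0.04 in KOL and 0.03 in WTL.

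**Figure D3:**
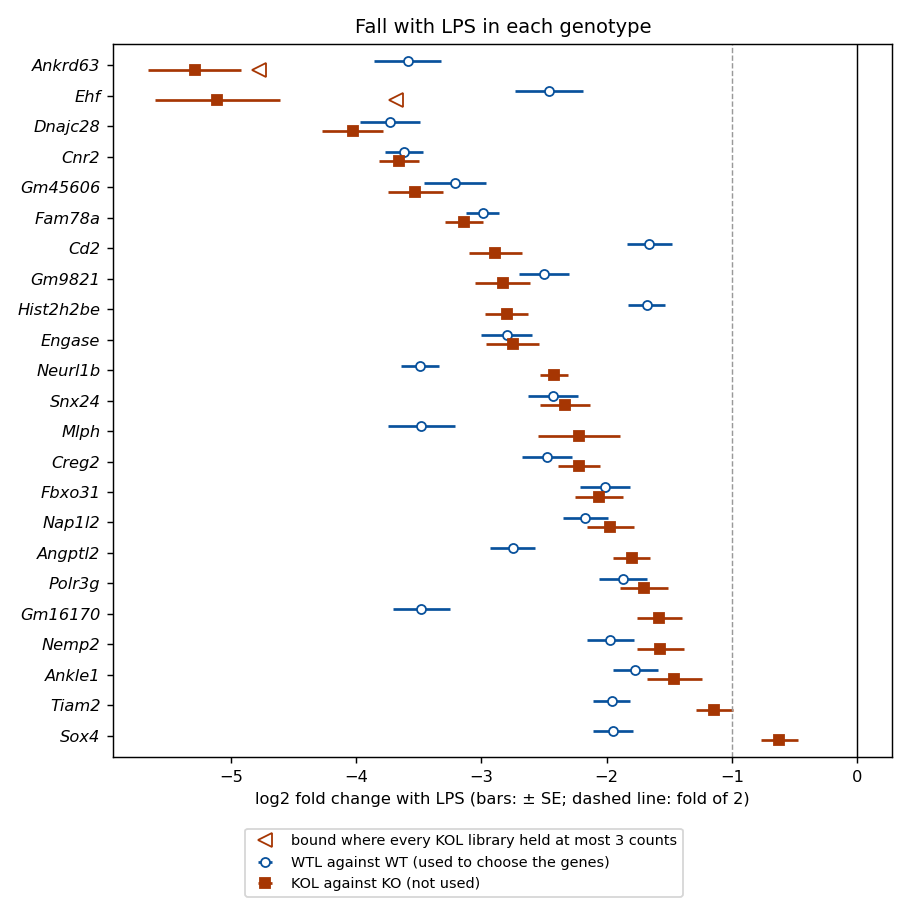
Log2 fold changes with LPS are drawn for each of the 23 genes, as open circles for WTL against WT and filled squares for KOL against KO, with bars of ± SE, and open triangles give the bound for Ankrd63 and Ehf, whose KOL libraries held at most 3 counts each. Each square but that of Sox4 (-0.62) lies beyond the dashed line at a fold of 2, and for Cnr2, Engase, Fbxo31 and Snx24 square and circle nearly coincide.

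Whether the fall was of the same size in both genotypes is described here without a test, because the WT and WTL counts had been used to choose the genes. The difference between the falls, KOL against KO minus WTL against WT, had a median of 0.10 on the log2 scale and a range from -2.66 to 1.90, where a positive value is a smaller fall without CTCF. In 13 genes it was within 0.5 of 0. The fall was smaller by more than 0.5 without CTCF in 6 genes, Gm16170 (1.90 ± 0.31), Sox4 (1.34 ± 0.23), Mlph (1.26 ± 0.48), Neurl1b (1.06 ± 0.20), Angptl2 (0.95 ± 0.25) and Tiam2 (0.82 ± 0.22). It was larger by more than 0.5 in 4, Ehf (-2.66 ± 0.69), Ankrd63 (-1.71 ± 0.60), Cd2 (-1.23 ± 0.29) and Hist2h2be (-1.12 ± 0.24), where Ehf and Ankrd63 have fitted values that rest on KOL libraries at the floor.

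The levels behind these differences varied. For Gm16170, Cd2 and Hist2h2be, KO was close to WT (-0.09 ± 0.16, 0.07 ± 0.15 and 0.11 ± 0.13) and the genotypes parted with LPS (1.82 ± 0.27, -1.16 ± 0.25 and -1.01 ± 0.21 in KOL against WTL). For Mlph and Tiam2 they were apart at rest (-1.72 ± 0.22 and -0.70 ± 0.13) and closer with LPS (-0.46 ± 0.41 and 0.12 ± 0.18). Neurl1b and Angptl2 were higher without CTCF at rest (0.86 ± 0.10 and 0.59 ± 0.13) and more so with LPS (1.92 ± 0.17 and 1.53 ± 0.21).

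**Figure D4:**
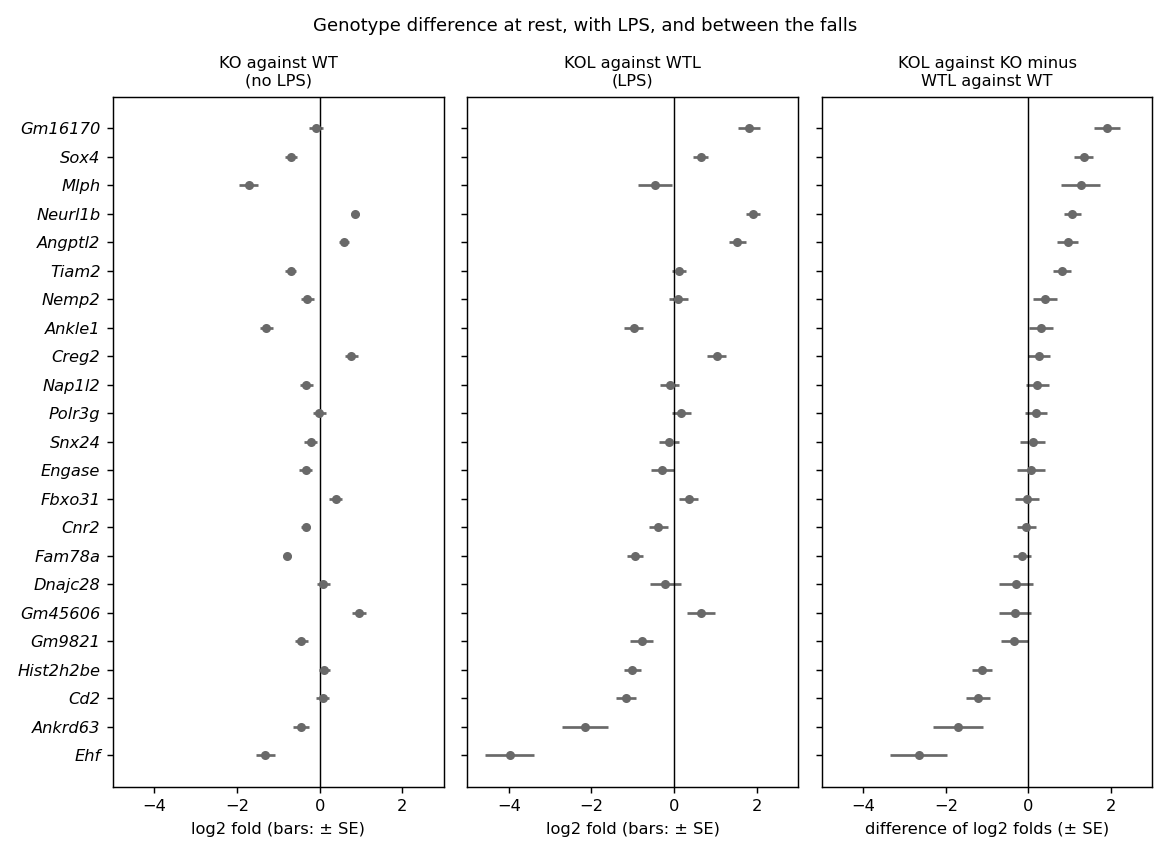
For each of the 23 genes the log2 fold of KO against WT (left), of KOL against WTL (middle) and the difference between the falls (right) are drawn with bars of ± SE, in the order of the right panel. The right panel runs from 1.90 for Gm16170 to -2.66 for Ehf, with 13 genes within 0.5 of 0.

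Over the 23 genes the KO mean was above the WT mean in 8 and below it in 15, and the KOL mean was above the WTL mean in 10 and below it in 13. Among the 14008 genes tested, the fold of KO against WT was up in 6808 and down in 7195. That of KOL against WTL was up in 6575 and down in 7432. The median log2 fold of the 23 was -0.30 in KO against WT and -0.12 in KOL against WTL, beside -0.01 and -0.03 over all genes tested. The -0.12 turned to 0.09 without WTL replicate 3. The choice took genes with high WT counts and low WTL counts, so the WT and WTL sides of these comparisons are not free of it. Its part in these values was not tested. The same limits applied to KO and KOL gave 30 genes, of which 7 were among the 23, or 30.4% of the 23 and 23.3% of the 30: Cd2, Cnr2, Dnajc28, Fam78a, Gm45606, Hist2h2be and Snx24. Of the other 16, 8 had a KO library below 100 counts, 5 a KOL library above 30, and 3 both. In the 30 genes chosen that way the median fall was -2.84 in KOL against KO and -1.96 in WTL against WT, the reverse of the order in the 23.

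Markers of other cells were set beside these values. The summed TPM of 10 mast cell, basophil and eosinophil markers was 17.1 to 19.4 in WT and 8.40 to 12.9 in WTL. It was 24.7 to 28.7 in KO and 13.2 to 17.9 in KOL, so the sum was lower with LPS in both genotypes. On log2(TPM + 1), the median log2 fold change over genes with at least 1 TPM in at least 3 libraries was -0.44 in WTL and -0.38 in KOL. Without that filter it was -0.065 and -0.036. Of the 4 tested, none passed as lower in either genotype, and 1, Kit, passed as higher in KOL against KO (1.48 ± 0.17). Fcer1a, Cpa3 and Mcpt8 had mean TPM of at most 0.0700, 0.200 and 0.257. Gata2 was at 0.563 TPM in WT and 0.227 in WTL, and at 2.87 in KO and 3.37 in KOL. Siglecf made up most of the summed TPM, at 11.4 in WT and 5.34 in WTL. Its log2 fold changes in the fit of counts were -0.62 ± 0.13 in WTL and -0.79 ± 0.12 in KOL, short of a fold of 2. The 10 neutrophil markers summed to 380 to 401 TPM in WT, 351 to 445 in WTL, 195 to 227 in KO and 291 to 339 in KOL. Of the 8 tested, 0 were lower with LPS, and 3 were higher in WTL against WT and 5 in KOL against KO. The 11 macrophage and monocyte markers summed to 1238 to 1334, 1124 to 1308, 1401 to 1449 and 1217 to 1383 in the same order. The 14 dendritic cell markers summed to 14741 to 15544 TPM in WT, 14113 to 18664 in WTL, 10144 to 10492 in KO and 14257 to 19149 in KOL, with 10 higher and 0 lower in KOL against KO and 5 higher and 0 lower in WTL against WT. The part of such differences in cell makeup in the levels of the 23 genes was not tested.

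Lists of genes from pathways or broad gene classes were counted beside the shares of all genes. Those shares were 13% lower and 15.1% higher in KOL against KO and 9.99% lower and 12.6% higher in WTL against WT. The lists of regulators of G protein signalling and of brakes on growth and phosphoinositide signalling held 0 of the 23. Whether listed genes act together with a member was not tested. Since the choice fixed the members' values in WTL, list counts in WTL against WT leave out Cnr2, Neurl1b, Engase and Sox4. Of 54 G protein-coupled receptors of resting myeloid cells tested, 18 (33.3%) were lower and 8 higher in KOL against KO, with a median of -0.49. In WTL against WT 17 (32.1%) of 53 were lower and 12 higher, with a median of -0.58. Of 10 endocannabinoid receptors and enzymes, 4 were lower in KOL, and 3 of 9 in WTL. Besides Cnr2, these were Napepld (-1.41 in KOL, -1.94 in WTL), an enzyme of anandamide synthesis, and Daglb (-1.40 and -2.09), which makes 2-arachidonoylglycerol, in both, with Naaa (-1.09) in KOL and Dagla (-1.68) in WTL. Faah, the enzyme that breaks down anandamide, rose by 3.40 and 3.00, and Abhd6, a hydrolase of 2-arachidonoylglycerol, rose in KOL (1.35) and had -0.80 in WTL. Cnr1, the gene of the other cannabinoid receptor, was listed at 0 in the 12 libraries.

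Of 27 Notch pathway genes and Neuralized ligases tested, 5 (18.5%) fell and 6 rose in KOL, and 7 (26.9%) of 26 were lower and 7 higher in WTL. Besides Neurl1b, Neurl2 fell in both genotypes (-2.55 ± 0.24 in KOL, -1.5 ± 0.24 in WTL), whereas Neurl1a rose (1.84 ± 0.26 and 3.65 ± 0.34). The ligands Dll1, Dll4 and Jag1 rose too (5.68, 3.79 and 4.17 in KOL). The ligand Jag2 went the other way (-0.50 ± 0.19 in KOL, -1.03 ± 0.22 in WTL). Of 17 genes of free N-glycan release and breakdown, 3 (17.6%) fell in KOL and 1 of 16 (6.25%) was lower in WTL, shares near those of all genes. Foxred2 (-3.12 in each) was lower in both genotypes, with Engase and Manba (-1.33) in KOL.

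Among 38 transcription factors of resting cells tested, 11 (28.9%) fell and 10 rose in KOL, and 12 (32.4%) of 37 were lower and 6 higher in WTL. Those lower in both genotypes included Lyl1 (-2.80 and -2.31), Id3 (-2.01 and -2.04) and Bach1 (-1.65 and -1.31). Of 23 brakes on growth and phosphoinositide signalling, 7 fell and 3 rose in KOL, and 6 fell and 2 rose in WTL, with Arrdc3 (-2.83 and -2.50) and Inpp5d (-2.32 and -2.10), the phosphatase SHIP, among the deepest. Of 11 regulators of G protein signalling, 2 fell and 5 rose in KOL, and 0 fell and 3 rose in WTL. The median of all genes was -0.02 in both contrasts.

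Paralogs of the 23 were looked up as well, in a list made after the values were seen. Of 22 paralogs, 17 were expressed enough to be tested, and 1 (Neurl2) fell in KOL against KO. In WTL against WT 3 were lower, Neurl2, Neurl3 and Angptl4, and 1, Neurl1a, was higher.

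In structure, 21 of the 23 are annotated as protein coding in GENCODE M21. Their exons covered a median of 4795 bases, beside 4065 for all genes tested, in a median of 4 exon blocks after merging, beside 8. Ankrd63, Gm45606, Gm9821, Hist2h2be, Nap1l2 and Sox4 have 1 exon block each. The genes lie on 11 chromosomes, with 5 on chromosome 2 (Angptl2, Ankrd63, Ehf, Fam78a and Gm9821), and no member was the nearest tested gene of another.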

How the data were processed

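RNA-seq libraries of GM-CSF BMDCs, 12 in all, were grouped by their labels into WT, WTL, KO and KOL, with 3 replicates each. The authors trimmed the reads, aligned them to mm10 with STAR (version 2.5.1 in the submitters' processing notes) and estimated gene abundance with RSEM. For each gene the authors deposited an expected count, an estimate that need not be whole, and its TPM and FPKM. The FPKM that the authors deposited were not used. The authors' sources differ on the library kit, naming a strand-specific kit with poly(A) selection in the paper and depletion of ribosomal RNA in the labels. They do not give RSEM's strand setting, so antisense and overlapping genes are uncertain.

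Expected counts were rounded and normalized by TMM with edgeR 4.0.16 (R 4.3.3). After filterByExpr removed low genes, the quasi-likelihood test was run in 1 fit of the 12 libraries without covariates, with Benjamini-Hochberg adjustment over the 14008 genes tested, at an adjusted p of 0.05 and a fold of 2. The test was first tried on simulated data. Normalized counts are counts scaled by the effective library size, errors are SDs over 3 replicates or SEs of the fit, and no value is an interval for sequencing depth: a gene was taken to be at the floor of a group where no library held more than 3 counts. P-values measure the spread between these replicates, estimated in 1 fit that the 4 groups share. That spread differed between groups, with a biological coefficient of variation of 2.62% in KO and 14.4% in KOL. The paper calls the replicates biological, and the counts alone cannot show whether each was a separate culture.

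The members, gene lists, motifs and tests were chosen with earlier results of these data known. Since WT and WTL counts chose the members, contrasts with those groups are given for members without a test. Each member is named with its KOL against KO change, and values in every library are given for the 8 with the highest WT TPM, the 4 largest and 4 smallest falls in KOL against KO and the 4 largest differences between the falls. Genes that overlap a member were taken from the annotation, and paralogs and partners were listed after values were seen. Positions are those of GENCODE M21, to which 55154 of 55335 identifiers were matched, and 54587 with their version. The alternatives were DESeq2 1.42.0, edgeR on 6 libraries, DESeq2's size factors, no filter, glmTreat, the replicate block, log2(TPM + 1) or log2(TPM + 0.1) in limma 3.58.1, no fold cutoff, other count limits and leaving out each replicate. Python 3.11.15 with pandas 2.3.3, numpy 2.4.6 and matplotlib 3.10.9 was used for tables and plots.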

Additional observations from a re-analysis of the deposited data

How the results depend on the processing

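The count of 22 members that fell in KOL against KO was also 22 with DESeq2, with edgeR on the 6 KO and KOL libraries, with DESeq2's size factors, without a filter, with log2(TPM + 0.1) in limma and without each KO or KOL replicate (22 to 22), and Sox4 was the member not called in each. It was 19 with limma on log2(TPM + 1), with and without a filter, where Ankle1, Ehf and Mlph were not called either, 20 with glmTreat, where Ankle1 and Tiam2 were not called, and 23 without a fold cutoff. Of 368 values of single members under the alternatives, 359 kept their direction and side of the threshold, 8 lost the call, 1 gained it and 0 changed direction. Over genes with at least 1 TPM in at least 3 libraries, the median on log2(TPM + 1) was -0.38 in KOL and -0.44 in WTL. With the pseudocount of 0.1 it was -0.45 and -0.52. Without that filter, the TPM scale gave -0.036 in KOL and -0.065 in WTL with the pseudocount of 1. The members' median there was -1.56 in KOL (with and without a filter) and -2.68 with 0.1, and -1.73 and -2.79 in WTL; the cause was not tested. It stayed at -2.37 to -2.26 in KOL and -2.61 to -2.42 in WTL without each replicate. The median of KO against WT was -0.24 on log2(TPM + 1) and -0.34 to -0.24 without each replicate. That of KOL against WTL was -0.05 on log2(TPM + 1) and -0.26 to 0.09 without each replicate, changing sign to 0.09 without WTL replicate 3. The median difference between the falls was 0.04 to 0.23 in the alternatives run.

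The number of genes within the limits depends on the limits: 9 with TMM-normalized counts, 9 with at most 20 in WTL, 94 with at most 50, 3 with at least 200 in WT, and 23 to 33 without each replicate. Of the 23, 7 were within the limits in KO and KOL, and 4 with TMM-normalized counts, 4 with at most 20, 9 with at most 50 and 7 to 8 without each replicate. With the replicate number as a block, 22 members fell, and over all genes 1823 fell and 2101 rose, beside 1819 and 2113 without it. Libraries of the same number correlated at -0.083 to -0.025 between KO and KOL and -0.075 to 0.138 between WT and WTL after removal of group means, -0.059 to 0.019 between WT and KO, and -0.664, -0.386 and 0.369 between WTL and KOL, where different numbers gave -0.616 to 0.678. Not every same-numbered pair was above 0.1, so the numbers were not taken to pair the libraries. Depth limits Ehf and Ankrd63, which were at or near 0 counts in KOL.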

Other observations

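The nearest tested gene on each side of the 23 was compared too, 46 neighbours in all, none of them among the 23. In KOL against KO 7 of the 46 (15.2%) were lower and 4 higher, and in WTL against WT 6 (13%) were lower and 4 higher, beside 13% and 9.99% of all genes that were lower. The median log2 fold change of the neighbours was -0.20 in KOL and -0.11 in WTL. Those next to a member and lower in both genotypes included Plcb2, a phospholipase beside Ankrd63 (-1.85 in KOL, -1.80 in WTL), and Mblac2, beside Polr3g (-2.28 and -1.81), whereas Irgm1, an interferon-induced GTPase beside Gm16170, was higher (3.83 and 3.39), and these 3 were picked after their values were seen.

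The spread between replicates was wider with LPS than without it, with a biological coefficient of variation of 4.91% in WT, 2.62% in KO, 13.7% in WTL and 14.4% in KOL.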
